A study of Mus musculus with 15 samples.

Results

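The type I interferon response genes examined here were a list of 44 mouse genes, set by symbol with earlier results of these data known. They encode the interferon alpha/beta receptor, the transcription factors below it and a set of well known interferon-stimulated genes. Their mRNA was measured by RNA sequencing in CD8+ T cells. Of the 44 genes, 42 were in the table of naïve and 24 h activated cells, which lists 11262 mRNA, and 41 were in the table of cytotoxic T lymphocytes (CTL), which lists 11211 mRNA. In all, 40 genes were in both tables, Ifi204 was in the CTL table alone, and Oasl1 and Mx2 were in the first table alone. Ifi44 was in neither table and was not analysed here.

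Type I interferons bind a receptor made of IFNAR1 and IFNAR2, which signals through the kinases JAK1 and TYK2 to a complex that holds STAT2 and IRF9. That complex binds interferon-stimulated response elements (ISRE) in front of genes whose products sense or block viruses, and IRF7 and IRF1 act on overlapping elements. T cells also keep a low, tonic expression of many of these genes without infection, and interferon gamma induces a part of them through gamma-activated sites (GAS).

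All cells came from P14 mice, which carry a transgenic TCR for the LCMV peptide gp33-41. In the first experiment, 3 biological replicates were each a pool of lymph node cells from 3 female mice aged 9 to 13 weeks, divided between naïve, TCR activated and PI3Kdi treated cells. Naïve cells were sorted ex vivo by low CD44 and high CD62L, and the activated groups were cultured for 24 h with peptide at 100 ng/ml, IL-12 at 2 ng/ml and IL-2 at 20 ng/ml, with DMSO as vehicle or 10 µM of the p110δ inhibitor IC87114 (PI3Kdi), and sorted as live CD8+ cells. In the second experiment, 3 replicates of P14 CTL, activated for 48 h and grown in 20 ng/ml IL-2 for 4 days, were washed on day 6 and cultured for 24 h with 20 ng/ml IL-2 or without it. The age and sex of the mice for these CTL and a sort of the CTL are not given in the sources used here. Both activated groups and the CTL had thus been exposed to IL-2, and both activated groups to IL-12, while naïve cells had no culture. For P14 CTL the study's methods also give peptide and IL-12, beside IL-2, in the 48 h of activation.

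Values are FPKM, read counts scaled to exon length and library size, so levels of different genes can be set side by side on a per-length scale. The 2 tables were normalised separately, and no test was made between them. Differences are given as log2 fold changes of log2(FPKM + 0.1) from limma with their standard error (SE), which understate the change of mRNA under about 1 FPKM. An mRNA is said to rise or fall where the adjusted p was under 0.05 and the fold change above 2 or below 0.5. The bulk RNA of a group cannot tell fewer cells of a type from less mRNA per cell. The reads of each library are not stated in the sources used here, and the median FPKM of all mRNA was between 11.2 and 12.3 in the 15 libraries. The 5 listed CD8 T cell markers, Cd8a, Cd8b1, Cd3e, Cd3d and Cd3g, summed to 3190.0 to 3480.0 FPKM in naïve, 637 to 685 in TCR activated and 811 to 953 in PI3Kdi treated libraries. Of the 8 dendritic cell markers, Itgax, Xcr1, Clec9a and Flt3 were not in the first table, and the other 4 summed to 7.23 to 28.2 FPKM in naïve, 67.0 to 110.0 in TCR activated and 17.5 to 27.1 in PI3Kdi treated cells, with Batf3, which activated T cells also express, at 0 in naïve cells.

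Promoter sequences are shown for some of the members with a match, to show the elements that interferon signalling is known to use. Several members named below for their changes had neither an ISRE core nor a GAS match and are not shown. Among them were Irf7, Irf9, Ifi47, Oasl1, Oasl2, Cmpk2, Dtx3l, Herc6 and Xaf1. Others, such as Rtp4, Usp18 and Ifi27l2a, had no promoter entry. In the RefSeq windows from 250 bases before to 50 bases after each start site (GRCm38.p6, the mm10 sequence), 32 of the 44 members had an entry. The core of an ISRE, spelled GAAA NN GAAA with N for any base, was searched on both strands and found in 14 of the 32 members (43.8%), in 3.81% of the genes of the FPKM tables and in 3.99% of all genes with a window. A GAS, TTCNNNGAA, was found in 11 of 32 members (34.4%), against 8.45% and 9.55% in those 2 sets. The start is the one the promoter table gives. For Oas1a, Ddx60, Ifi203 and Ifit3 it lies inside the outermost RefSeq span of the gene, and for Ifit3 and Oas1a the bases after it were not matched to a transcript. The FOXO site GTAAACA was found in 1 of 32 members, Rsad2 (3.12%), against 3.05% and 4.05%. These matches describe letters and are not measured binding sites, and the 2 motifs share bases in Bst2. The stretches below are written 5′ to 3′ in the direction of each gene, with the matches in capitals.

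Isg15, chr4:156200855-156200916, minus strand, with 3 overlapping ISRE cores.
Isg15: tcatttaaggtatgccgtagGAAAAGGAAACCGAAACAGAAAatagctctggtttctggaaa
Ifit1, chr19:34640765-34640833, plus strand, with 2 cores read on the other strand.
Ifit1: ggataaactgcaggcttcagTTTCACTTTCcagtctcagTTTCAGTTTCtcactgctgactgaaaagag
Ifit3, chr19:34583353-34583436, plus strand, with the same 2 cores.
Ifit3: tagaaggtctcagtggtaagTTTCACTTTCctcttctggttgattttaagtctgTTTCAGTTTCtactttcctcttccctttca
Oas1a, chr5:120907526-120907565, minus strand, with 2 overlapping cores that lie almost wholly within the annotated gene.
Oas1a: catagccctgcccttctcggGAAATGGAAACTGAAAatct
Ddx60, chr8:61928014-61928086, plus strand, with 2 copies of the same core.
Ddx60: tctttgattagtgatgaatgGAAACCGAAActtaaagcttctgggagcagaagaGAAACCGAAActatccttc
Ifi203, chr1:173942498-173942547, minus strand, with 1 core.
Ifi203: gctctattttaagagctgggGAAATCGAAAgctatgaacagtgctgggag
Irf1, chr11:53769904-53769952, plus strand, with a GAS and no ISRE core.
Irf1: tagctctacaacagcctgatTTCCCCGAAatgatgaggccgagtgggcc
Samhd1, chr2:157135303-157135346, minus strand, with a GAS and no ISRE core.
Samhd1: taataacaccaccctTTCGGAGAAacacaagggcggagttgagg

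**Figure D1:**
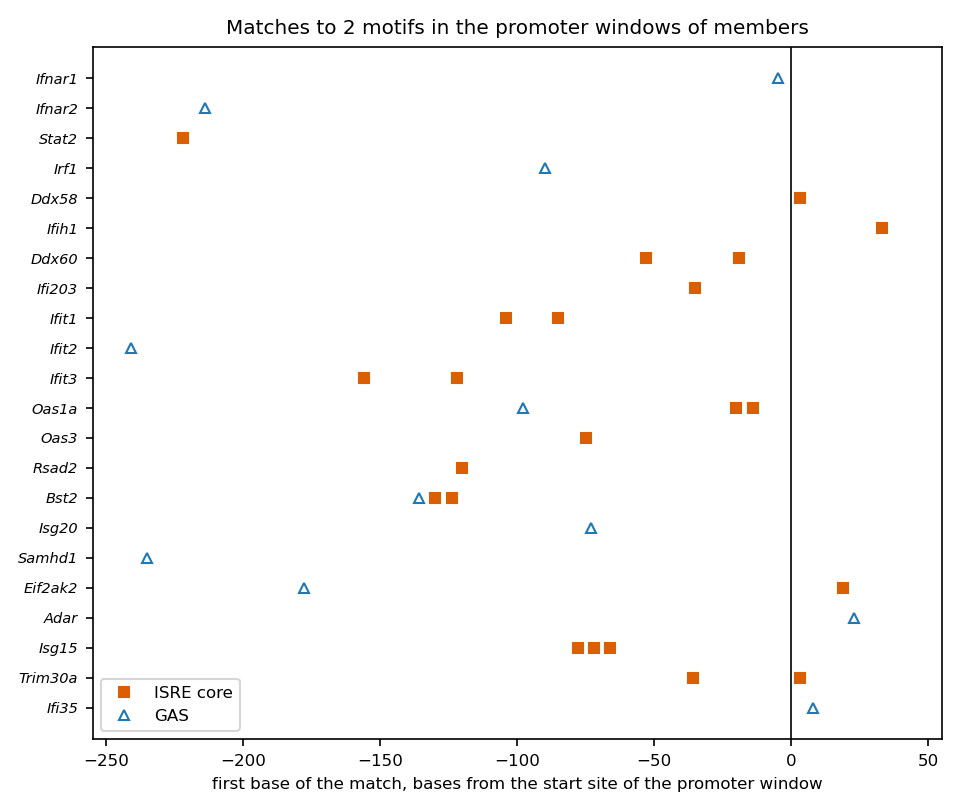
Positions of matches to the ISRE core (squares) and to the GAS (open triangles) for each member with a match, as the distance of the first base of the match from the start site of the promoter window, in bases, with 0 at the line. The 3 matches of Isg15 to the ISRE core lie close together before this start site.

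Naïve cells held every measured member above 1 FPKM in each library. The median of the 40 members in both tables was 25.2 to 28.4 FPKM in the 3 naïve libraries, 2.71 to 3.87 in TCR activated cells and 2.15 to 3.33 with PI3Kdi. The highest naïve levels were those of Ifi47, a p47 GTPase, at 149 ± 24.8 FPKM (SD, n = 3), Ifi27l2a at 124 ± 31.8 FPKM, the DNA sensor family member Ifi203 at 109 ± 7.72 FPKM and the dNTP hydrolase Samhd1 at 108 ± 2.24 FPKM. Rsad2, at 3.62, 2.7 and 1.64 FPKM, and Mx2, at 3.46, 2.25 and 1.79 FPKM, were lowest. After activation, 11 to 17 of the 42 members were under 1 FPKM in a TCR activated library and 15 to 18 in a PI3Kdi treated library. In CTL, the median of the same 40 members was 15.7 to 19.1 FPKM with IL-2 and 26.4 to 30.4 FPKM without IL-2.

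**Figure D2:**
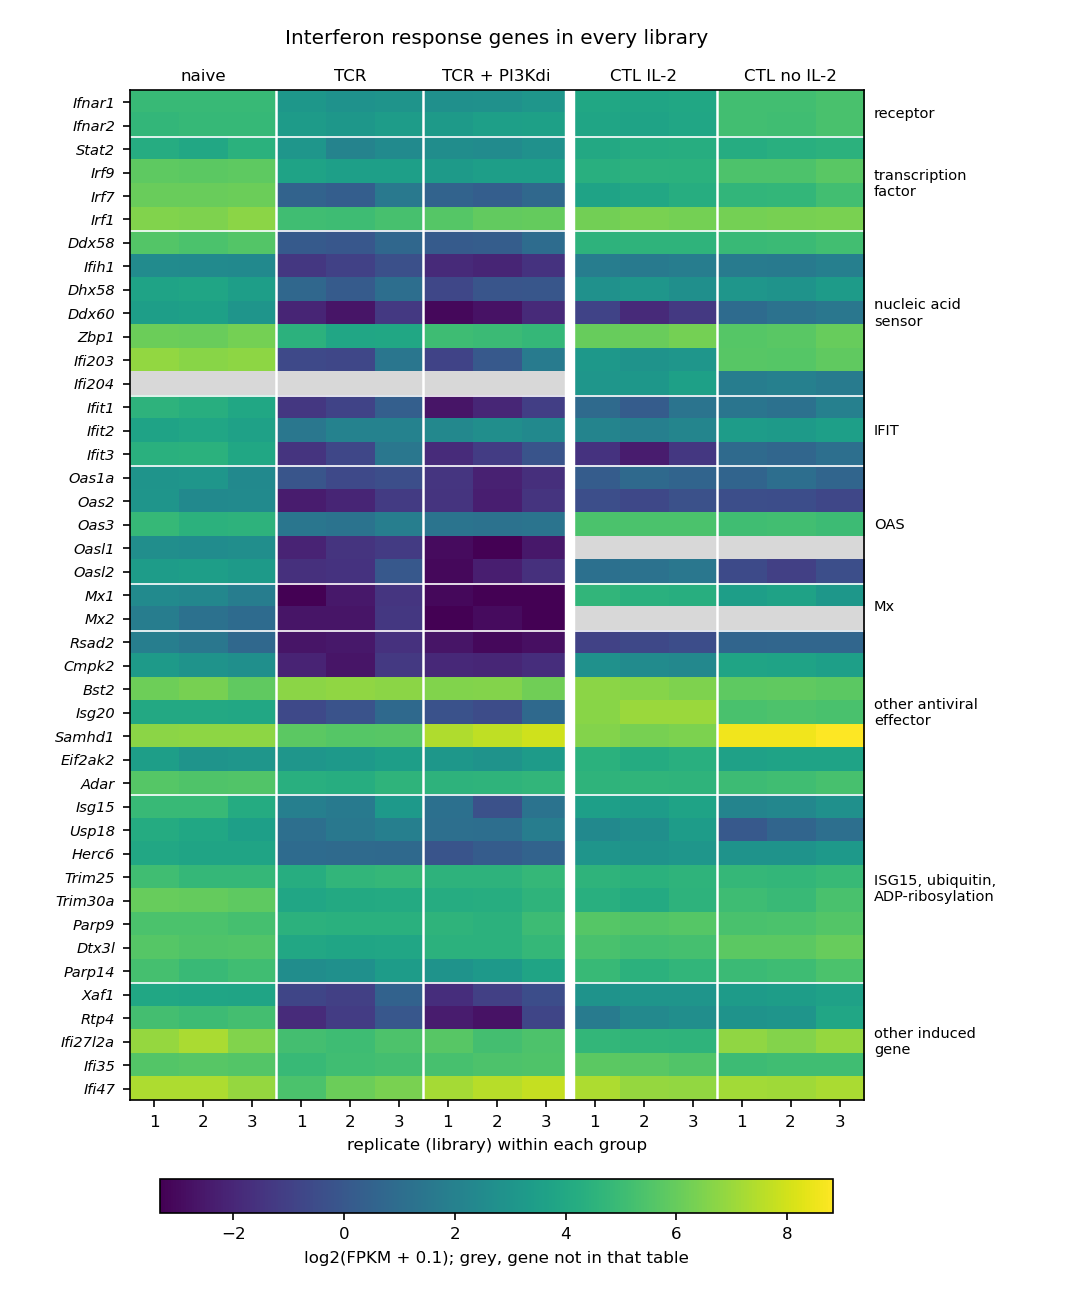
Level of every measured member in each of the 15 libraries, as log2(FPKM + 0.1) on a colour scale, with genes grouped by role and libraries by group and replicate and with grey cells for genes not in that table. Most genes are darkest in the TCR activated and PI3Kdi treated libraries, while Samhd1 is brightest in CTL without IL-2.

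Activation through the TCR was accompanied by a fall of most of these mRNA. Between naïve and TCR activated cells 37 of the 42 members fell and none rose, where 23.7% of all mRNA tested fell and 25.0% rose. The median log2 fold change was -2.67 over the members and 0.00544 over all mRNA. By the adjusted p alone 39 members were lower and 1, Bst2, was higher, where 39.8% and 40.9% of all mRNA were. Falls covered both receptor chains, all 4 transcription factors, all 6 nucleic acid sensors, the 3 IFIT, the 5 OAS and the 2 Mx genes, 5 of 7 other antiviral effectors, 6 of 8 genes of ISG15, ubiquitin and ADP-ribosylation, and 4 of 5 other induced genes. The groups did not overlap for any of the 37. The share of all mRNA without overlap was not counted, so this adds no result to the calls. Markers moved in both directions in the same comparison. All 5 CD8 T cell markers were called lower, with a median log2 fold change of -2.26. The 3 of 5 plasmacytoid dendritic cell markers in the table, 2 of them called lower, summed to 92.4 to 93.3 FPKM in naïve cells. Nearly all of this was Ccr9, which naïve T cells also express, and the sum after activation was 0.89 to 1.81 FPKM. Of the 4 dendritic cell markers 2 were called higher and none lower, and of the 2 CD4 T cell markers 1 and none. Of the 4 B cell markers none was higher and 1 lower, of the 3 macrophage and monocyte markers 1 and 1, and the 1 NK cell marker was not called. The part of such changes in the members' falls was not tested.

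Both receptor chains fell by less than the median member. Ifnar1 (Entrez 15975, chr16:91485032-91510523) was at 29.1, 28.9 and 29.3 FPKM in the naïve libraries, 8.66, 7.26 and 7.69 FPKM in the TCR activated and 6.73, 7.05 and 8.15 FPKM in the PI3Kdi treated libraries. Ifnar2 (Entrez 15976, chr16:91372783-91405589) was at 26.2, 28.7 and 27.9, then 10.2, 8.53 and 10.4, then 9.87, 11.6 and 11.8 FPKM in the same order. Both activated groups lay below every naïve library and overlapped each other. The log2 fold change on activation was -1.88 ± 0.11 (SE, limma adjusted p = 2.23e-08) for Ifnar1 and -1.50 ± 0.11 for Ifnar2 (adjusted p = 1.9e-07).

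Among the transcription factors, Irf7 (Entrez 54123, chr7:141263183-141266499), the factor that amplifies interferon production, was at 67.2, 67.6 and 69.2 FPKM in naïve, 1.36, 1.14 and 2.96 in TCR activated and 1.37, 1.13 and 1.63 in PI3Kdi treated libraries. It fell to 2.68% of its naïve mean, a log2 fold change of -5.27 ± 0.28 (limma adjusted p = 1.18e-08). Irf9 (Entrez 16391, chr14:55603985-55610030), the DNA-binding partner of STAT2, was at 56.2, 53.8 and 57.1 FPKM before and 13.3, 11.7 and 11.7 FPKM after activation, and at 9.63, 11.2 and 11.2 FPKM with PI3Kdi. Stat2 (Entrez 20847, chr10:128270498-128292853) was at 18.7, 15.7 and 21.4 FPKM before activation, 8.38, 4.2 and 5.57 FPKM after it and 6.16, 5.73 and 7.11 FPKM with PI3Kdi. Irf1 (Entrez 16362, chr11:53770014-53778374), which also answers to interferon gamma and TCR signals, was at 92.9, 90.9 and 107 FPKM in naïve libraries, 34.4, 33.4 and 39.4 FPKM after activation and 50.2, 60.01 and 61.7 FPKM with PI3Kdi. The activated libraries were below all naïve libraries for each of these factors, and with PI3Kdi all libraries were above the TCR activated ones for Irf1 and below them for Irf9. Log2 fold changes on activation were -2.18 ± 0.09 for Irf9, -1.65 ± 0.22 for Stat2 and -1.44 ± 0.11 for Irf1, with adjusted p of 2.46e-09, 2.51e-05 and 1.89e-07 in limma.

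With the pseudocount of 0.1, the nucleic acid sensors held 3 of the 5 largest falls. Ifi203 (Entrez 15950, chr1:173920400-173942866), of the interferon-inducible p200 family, was at 116, 101 and 108 FPKM in the naïve libraries and 0.54, 0.51 and 2.64 FPKM after activation, 1.13% of the naïve mean. Ddx58 (Entrez 230073, chr4:40203777-40239825), which encodes the RNA sensor RIG-I, went from 47.6, 42.6 and 48.3 to 0.98, 0.87 and 1.56 FPKM. Ddx60 (Entrez 234311, chr8:61928073-62037704), a helicase linked to RIG-I, went from 11.1, 12.1 and 8.04 to 0.14, 0.06 and 0.31 FPKM. All 3 were near or under 1 FPKM in replicates 1 and 2 and highest in replicate 3 of the TCR activated cells. Their log2 fold changes were -6.73 ± 0.64, -5.26 ± 0.24 and -5.37 ± 0.38 (limma adjusted p = 1.67e-06, 3.32e-09 and 1.19e-07). Rtp4 (Entrez 67775, chr16:23520219-23614222), an interferon-induced chaperone, and Irf7 were the other 2, and Rtp4 went from 37.3, 32.5 and 36.3 to 0.18, 0.35 and 0.9 FPKM with a log2 fold change of -6.14 ± 0.51 (adjusted p = 5.34e-07). The remaining sensors, Ifih1 (MDA5), Dhx58 (LGP2) and the Z-nucleic acid sensor Zbp1, had log2 fold changes of -3.40, -3.02 and -2.07.

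The antiviral effectors fell unevenly. Median log2 fold changes were -4.50 for the IFIT genes, which bind foreign RNA ends, -4.26 for the OAS genes and -1.17 for the other effectors. Within the IFIT genes, Ifit1 and Ifit3 were left with 3.32% and 6.04% of the naïve mean and Ifit2 with 27.7%. Cmpk2 and Rsad2 (viperin), neighbours on chromosome 12, had log2 fold changes of -4.99 and -3.66, and Isg20, an RNA exonuclease, -4.01. Mx1, listed at 0, 0.07 and 0.27 FPKM in TCR activated cells, and Mx2, at 0.06, 0.06 and 0.29 FPKM, had blank or very low values in activated libraries, so their fold depends on the pseudocount. RefSeq lists both as transcribed pseudogenes in this assembly.

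Adar, the RNA editing enzyme, and Samhd1 fell by little more than the 2-fold limit, with log2 fold changes of -1.17 ± 0.10 and -1.06 ± 0.12. The call of Samhd1 was lost with median scaling of the libraries, and that of Ifi47 (-1.23) without replicate 1. The 5 members that did not fall were Bst2, Eif2ak2, Trim25, Parp9 and Ifi35. Bst2 (tetherin), which holds virions at the cell surface, was at 71, 82.4 and 58.8 FPKM in naïve and 106, 113 and 106 FPKM in TCR activated libraries, and these did not overlap. Its log2 fold change of 0.63 ± 0.13 (limma adjusted p = 0.000886) was under the 2-fold limit. Eif2ak2, the double-stranded RNA kinase PKR, was at 11.02, 7.81 and 8.3 FPKM before and 8.27, 9.49 and 11.1 FPKM after activation, with overlapping groups (log2 fold change 0.09 ± 0.16, adjusted p = 0.616). The ubiquitin ligase Trim25 had a log2 fold change of -0.30 ± 0.14 (adjusted p = 0.0686), and Parp9 (-0.93) and Ifi35 (-0.55) were lower at an adjusted p under 0.05 but by less than 2-fold.

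In the group of ISG15, ubiquitin and ADP-ribosylation, the modifier Isg15 had a log2 fold change of -2.37 on activation, its protease Usp18 -2.35 and its ligase Herc6 -2.97. Trim30a, Parp14 and Dtx3l had log2 fold changes of -1.91, -2.15 and -1.66. Dtx3l and Parp9, whose products form a complex, overlap on chromosome 16, so that reads of the overlap could be counted for either one. Several members also have close copies that can share reads, among them Ifit3 with Ifit3b, Oas1a with the other Oas1 genes, Ifi203 with Ifi204 and their p200 neighbours, and Trim30a with Trim30d, and their values are uncertain to that extent. Xaf1, a promoter of apoptosis, had a log2 fold change of -4.26.

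**Figure D3:**
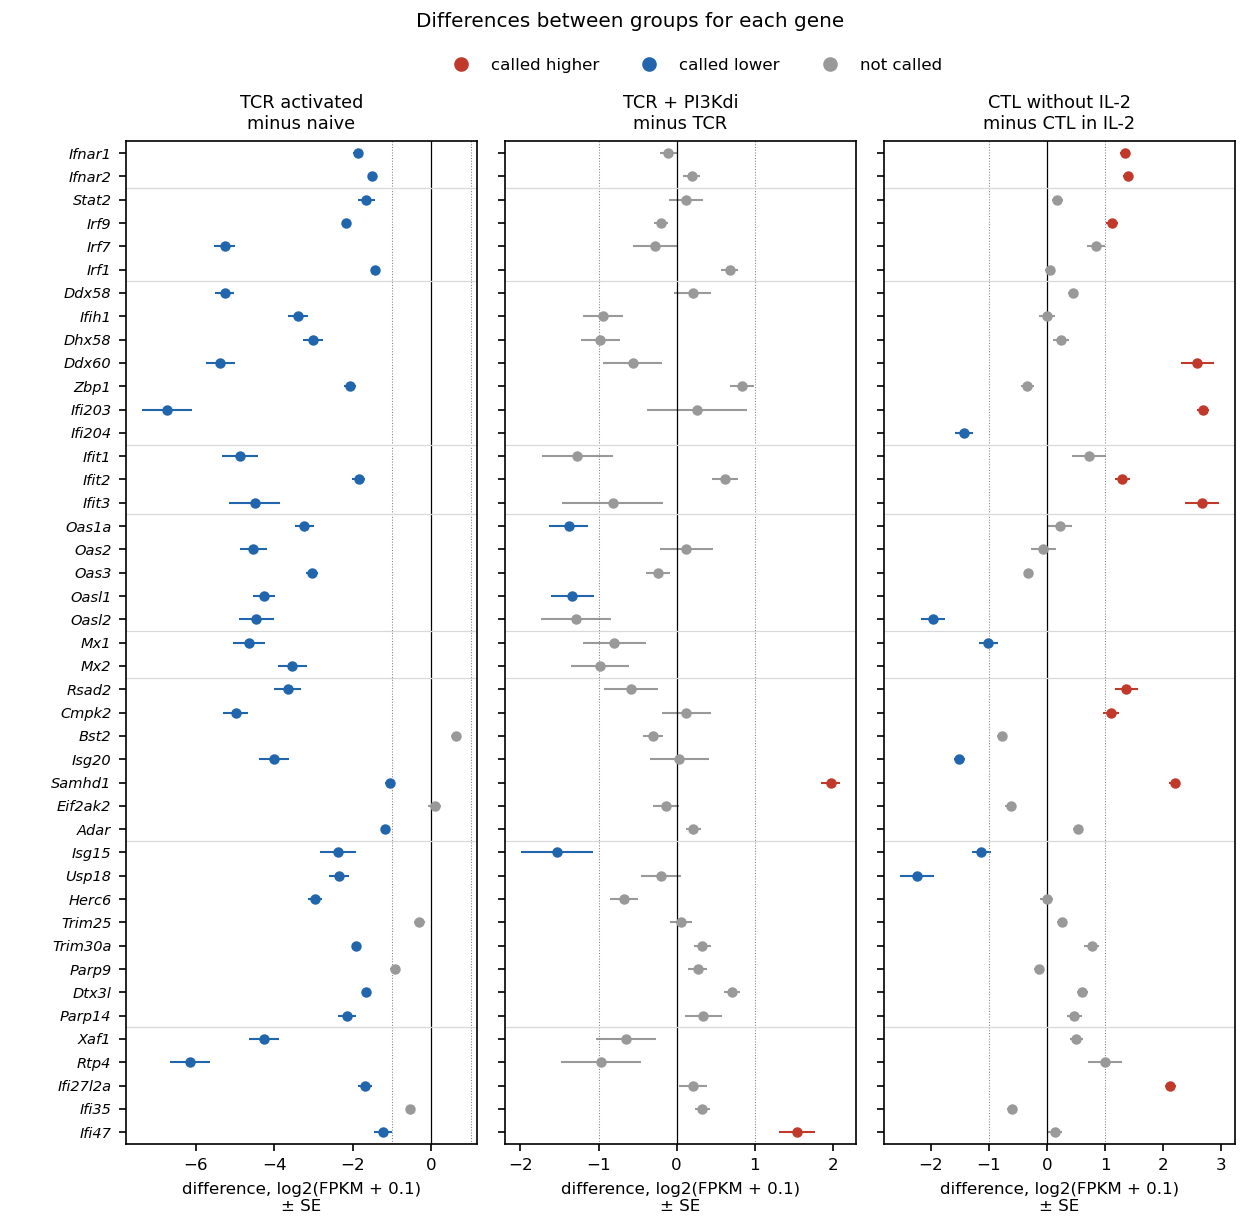
Log2 fold change of each member with its SE (horizontal bars) in TCR activated minus naïve cells, in PI3Kdi treated minus TCR activated cells and in CTL without IL-2 minus CTL in IL-2, with coloured points for members past the adjusted p and 2-fold limits (dotted lines at -1 and 1) and grey points for the rest, and the 3 panels have different axis ranges. The left panel holds 37 members called lower and 0 called higher, the middle panel 2 higher and 3 lower, and the right panel 11 higher and 6 lower.

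PI3Kdi changed few of these mRNA in activated cells. Of the 42 members, 2 were higher and 3 lower with PI3Kdi than with TCR activation alone (4.76% and 7.14%), where 3.04% of all mRNA tested were higher and 2.10% lower. The median log2 fold change was -0.12 over the members and -0.0076 over all mRNA. By the adjusted p alone, 7 members were higher and 6 lower, where 9.35% and 8.19% of all mRNA were. Both receptor chains and the 4 transcription factors stayed under the 2-fold limit.

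Samhd1 (Entrez 56045, chr2:157097534-157135096), which hydrolyses dNTP and restricts viral reverse transcription, had the largest rise. It was at 106, 108 and 111 FPKM in naïve, 55.4, 50.3 and 50.9 FPKM in TCR activated and 169.8, 203 and 248 FPKM in PI3Kdi treated libraries. Each PI3Kdi library was thus above every TCR activated library and also above every naïve one. The log2 fold change was 1.97 ± 0.12 against TCR activation (limma adjusted p = 4.57e-06) and 0.92 ± 0.12 against naïve cells (adjusted p = 2.44e-05), the latter under the 2-fold limit. Ifi47 (Entrez 15953, chr11:49076587-49096987), a GTPase induced by both types of interferon, was at 163, 163 and 120.0 FPKM in naïve, 42.3, 69.2 and 83.4 FPKM in TCR activated and 147, 188 and 220.0 FPKM in PI3Kdi treated cells. The PI3Kdi libraries were all above the TCR activated ones and overlapped the naïve ones, with log2 fold changes of 1.54 ± 0.23 (adjusted p = 0.00118) and 0.31 ± 0.23 (adjusted p = 0.236). Both calls against TCR activation stood in all 11 alternative settings.

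The 3 falls were in mRNA that TCR activated libraries held at 9.15 FPKM or less. Isg15 (Entrez 100038882, chr4:156199424-156200818), whose promoter stretch above holds 3 overlapping ISRE cores, was at 29.04, 29.1 and 17.5 FPKM in naïve, 3.71, 2.99 and 9.15 FPKM in TCR activated and 2.12, 0.72 and 2.37 FPKM in PI3Kdi treated libraries. Replicate 3 was high in TCR activated cells and replicate 2 low with PI3Kdi, and the groups did not overlap (log2 fold change -1.53 ± 0.46, limma adjusted p = 0.0426). This call was lost in 6 of 11 alternative settings, among them leaving out any one of the 3 replicates, and over the 11 settings the adjusted p ran from 0.0362 to 0.13. Oas1a (Entrez 246730, chr5:120896256-120907544) was at 7.83, 8.39 and 5.41 FPKM in naïve libraries, 0.82, 0.54 and 0.66 FPKM after activation and 0.27, 0.12 and 0.21 FPKM with PI3Kdi, which left both activated groups apart, with a log2 fold change of -1.38 ± 0.25 with PI3Kdi (adjusted p = 0.00373). Oasl1 (Entrez 231655, chr5:114923143-114937911) was at 6.42, 5.98 and 6.27 FPKM in naïve, 0.13, 0.26 and 0.33 FPKM in TCR activated and 0.03, 0 and 0.07 FPKM in PI3Kdi treated libraries (log2 fold change -1.34 ± 0.27, adjusted p = 0.00724). The call of Oas1a was lost with a pseudocount of 1, and that of Oasl1 with a pseudocount of 1 or without replicate 2. With a pseudocount of 1, none of the members was called lower.

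A further 8 members passed the adjusted p without reaching 2-fold. Irf1 (log2 fold change 0.68 ± 0.11, limma adjusted p = 0.00158), Zbp1 (0.84 ± 0.15), Dtx3l (0.70 ± 0.10), Ifit2 (0.62 ± 0.17) and Ifi35 (0.33 ± 0.10) were higher with PI3Kdi. The RNA sensors Ifih1 (-0.94 ± 0.26) and Dhx58 (-0.98 ± 0.25) and the ligase Herc6 (-0.67 ± 0.18) were lower. These 8 had groups that did not overlap, and here too the share over all mRNA was not counted. Oasl2, at 0.22, 0.24 and 0.93 FPKM with TCR activation and 0.02, 0.1 and 0.22 FPKM with PI3Kdi, missed the threshold at an adjusted p of 0.07 and passed it with the replicate number as a block (adjusted p = 0.0336).

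Other cell markers moved in the same comparison. Cd74, part of MHC class II presentation, was at 17.3, 8.96 and 22.1 FPKM in TCR activated and 2, 3.57 and 3.8 FPKM in PI3Kdi treated libraries, and H2-Aa at 2.69, 1.86 and 4.73 FPKM with TCR activation and 0.54, 0.65 and 0.51 FPKM with PI3Kdi. The 4 of 6 B cell markers in the table summed to 20.9 to 26.3 FPKM in naïve, 4.63 to 7.12 in TCR activated and 3.3 to 4.58 in PI3Kdi treated libraries. The 3 of 5 plasmacytoid dendritic cell markers summed to 0.89 to 1.81 FPKM with TCR activation and 1.88 to 2.61 with PI3Kdi. Of these 3, Ccr9 was called higher (means 0.2 and 1.04 FPKM), and Spib (0.49 and 0.12) and Tcf4 (0.783 and 0.97) were not called. The NK cell marker Eomes was called lower, as were 1 of 2 CD4 T cell markers, Cd40lg, and 2 of 4 B cell markers. None of the 3 macrophage and monocyte markers was called. All 4 dendritic cell markers in the table were called lower with PI3Kdi, among them Batf3, at 89.2, 55.6 and 65 FPKM against 21.8, 13.1 and 22.6 FPKM. The part of such cells in the levels of Isg15, Oas1a and Oasl1 was not tested.

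Against naïve cells, PI3Kdi treated cells had 32 of 42 members lower and none higher, where 21.3% of all mRNA were lower and 23.6% higher, and a median log2 fold change of -3.47. By the adjusted p alone 36 were lower and 2, Bst2 and Samhd1, were higher, where 39.0% and 40.1% of all mRNA were. This comparison shares its libraries with the other 2, so its values are given beside theirs. Apart from Mx1, Mx2 and Oasl1, which had blank values, the smallest levels left with PI3Kdi were 0.594% of the naïve mean for Rtp4, 0.768% for Ddx60 and 1.03% for Ifit1, and the largest were 124.0% for Bst2, 125.0% for Ifi47 and 191.0% for Samhd1. Irf1, Adar, Dtx3l and Ifi47 were among the 37 that fell with TCR activation and, with Samhd1, were not called lower here.

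In CTL, withdrawal of IL-2 moved members in both directions. Without IL-2, 11 of the 41 members were higher and 6 lower (26.8% and 14.6%), where 14.3% of all mRNA tested were higher and 13.9% lower. The median log2 fold change was 0.255 over the members and -0.000901 over all mRNA. By the adjusted p alone 21 members were higher and 11 lower, where 35.2% and 36.6% of all mRNA were. The rises included both receptor chains, Irf9, 2 of 3 IFIT genes and the sensors Ifi203 and Ddx60. In the same comparison the CD8 T cell markers summed to 971 to 1040.0 FPKM with IL-2 and 1880.0 to 2070.0 without, and the 4 dendritic cell markers in the table to 26.1 to 45.6 and 38.5 to 56.6 FPKM. Of these 4, 1 was called higher, none lower and 3 neither. The 1 called was Itgax, at 0.21, 0.39 and 0.33 FPKM with IL-2 and 3.67, 5.17 and 4.81 FPKM without. Means with and without IL-2 were 31.6 and 32.6 FPKM for Batf3, 5.95 and 10.7 for Cd74, and 0.797 and 0.74 for H2-Aa. The 3 of 6 macrophage and monocyte markers summed to 5.58 to 9.76 and 9.99 to 16.9 FPKM, but 1 was called higher, 1 lower and 1 neither. Their means with and without IL-2 were 0.293 and 4.09 FPKM for Itgam, 0.283 and 0.0133 for Mpeg1, and 7.69 and 8.78 for Cd68. The B cell marker Cd79b, the 1 of 6 in the table, was at 2.74 to 6.3 and 10.8 to 20.6 FPKM. The 2 of 4 NK cell markers, mostly Eomes, which CTL also express, summed to 77.7 to 165.0 and 12.1 to 24.2 FPKM. The part of these markers' cells in the differences was not tested. The falls included Oasl2, Mx1, Isg20, Isg15, its protease Usp18, and Ifi204.

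Ifnar1 was at 14.99, 13.9 and 14.9 FPKM in the 3 libraries with IL-2 and 35.7, 35.7 and 40.6 FPKM in those without. Ifnar2 was at 14.03, 13.3 and 14.5 FPKM with IL-2 and 35.4, 34.9 and 40.5 FPKM without. Both chains were well separated between the groups, with log2 fold changes of 1.35 ± 0.09 and 1.40 ± 0.09 (limma adjusted p = 1.2e-06 and 1.14e-06). Irf9 stood at 20.03, 22.7 and 21.6 FPKM with and 43.8, 43.4 and 53.5 FPKM without IL-2, a log2 fold change of 1.12 ± 0.10 (adjusted p = 8.68e-06). Irf7 was at 13.4, 15.8 and 18.8 FPKM with IL-2 and 25.6, 26.1 and 35.3 FPKM without, without overlap but under the 2-fold limit (0.85 ± 0.15, adjusted p = 0.000774). Stat2, at 16.3, 18.3 and 19.3 FPKM with and 18.7, 20.4 and 22.1 FPKM without IL-2, and Irf1, at 75.9, 84.5 and 77.8 FPKM with and 79.7, 82.2 and 83.8 FPKM without IL-2, overlapped between the groups (adjusted p = 0.133 and 0.589).

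With the pseudocount of 0.1, Ifi203, Ifit3 and Ddx60 had the largest rises. Which members were largest, and their order, depended on the pseudocount. Over the alternatives the log2 fold change went as low as 1.199 for Ifit3 and 1.32 for Ddx60. Those of Ifi203, Samhd1 and Ifi27l2a stayed at or above 2.561, 2.104 and 2.012. Ifi203 rose from 8.81, 7.51 and 8.29 FPKM with IL-2 to 50.8, 49.97 and 59.3 FPKM without it (log2 fold change 2.69 ± 0.10, limma adjusted p = 1.36e-07). Its p200 relative Ifi204 (Entrez 15951, chr1:173747293-173767069) moved the other way, from 8.36, 8.63 and 12.01 to 3.45, 3.77 and 3.24 FPKM (-1.43 ± 0.15, adjusted p = 2.81e-05). Ddx60 went from 0.45, 0.17 and 0.3 to 1.83, 2.27 and 2.71 FPKM (2.59 ± 0.28, adjusted p = 2.93e-05). The 2 p200 genes thus had opposite differences between the same libraries. Other sensors differed less, with log2 fold changes of 0.44 for Ddx58, 0.25 for Dhx58, -0.00148 for Ifih1 and -0.34 for Zbp1.

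Samhd1 was the most abundant member without IL-2, at 379, 382 and 458 FPKM against 94.9, 82.3 and 87.9 FPKM with IL-2, a log2 fold change of 2.20 ± 0.10 (limma adjusted p = 2.59e-07). Ifi27l2a (Entrez 76933, chr12:103433873-103443680) rose from 26.3, 24.7 and 23.6 to 111, 95.6 and 119 FPKM (2.12 ± 0.10, adjusted p = 2.88e-07). Ifit3 (Entrez 15959, chr19:34583119-34588982) rose from 0.24, 0.09 and 0.29 to 1.72, 1.51 and 2.09 FPKM (2.66 ± 0.29, adjusted p = 3.21e-05). These 3 had no overlap between groups, and the separately normalised table listed Ifit3 at 21.3, 22.02 and 14.8 FPKM in naïve libraries. Rsad2 was at 0.42, 0.52 and 0.63 FPKM with IL-2 and 1.47, 1.49 and 1.51 FPKM without (1.37 ± 0.20, adjusted p = 0.000182), and Cmpk2 and Ifit2 had log2 fold changes of 1.10 and 1.30. The calls of Rsad2 and Cmpk2 were lost with a pseudocount of 1.

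Among the falls, Usp18 (Entrez 24110, chr6:121245906-121270917), which removes ISG15 and restrains the type I receptor, was at 5.37, 6.62 and 10.4 FPKM with IL-2 and 0.97, 1.47 and 2.07 FPKM without it (-2.24 ± 0.29, limma adjusted p = 9.36e-05). Isg15 was at 11.5, 10.6 and 13.03 FPKM with IL-2 and 4.43, 4.89 and 6.74 FPKM without (-1.13 ± 0.16, adjusted p = 0.000168). Modifier and protease were both lower in every library without IL-2, while the ligase Herc6 was at 8.07, 7.59 and 8.38 FPKM with IL-2 and 7.5, 7.47 and 9.07 FPKM without (adjusted p = 0.973). Oasl2 (Entrez 23962, chr5:114896926-114912245) was at 2.11, 2.28 and 2.7 FPKM with and 0.57, 0.4 and 0.65 FPKM without IL-2 (-1.96 ± 0.21, adjusted p = 2.56e-05). Isg20 (Entrez 57444, chr7:78913396-78920396) was at 102, 129.7 and 129 FPKM with IL-2 and 41.01, 43.6 and 41.3 FPKM without (-1.51 ± 0.10, adjusted p = 1.57e-06), and the separately normalised table listed it at 16, 16.2 and 15.6 FPKM in naïve libraries. Mx1 was listed at 25.4, 20.7 and 19.5 FPKM with and 11.3, 12.95 and 8.43 FPKM without IL-2 (-1.01 ± 0.16), and its call was lost in 4 of 9 alternative settings, by the 2-fold limit. Bst2 (-0.78), Eif2ak2 (-0.63), Ifi35 (-0.61), Oas3 (-0.32) and Zbp1 were lower at an adjusted p under 0.05 by less than 2-fold.

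**Figure D4:**
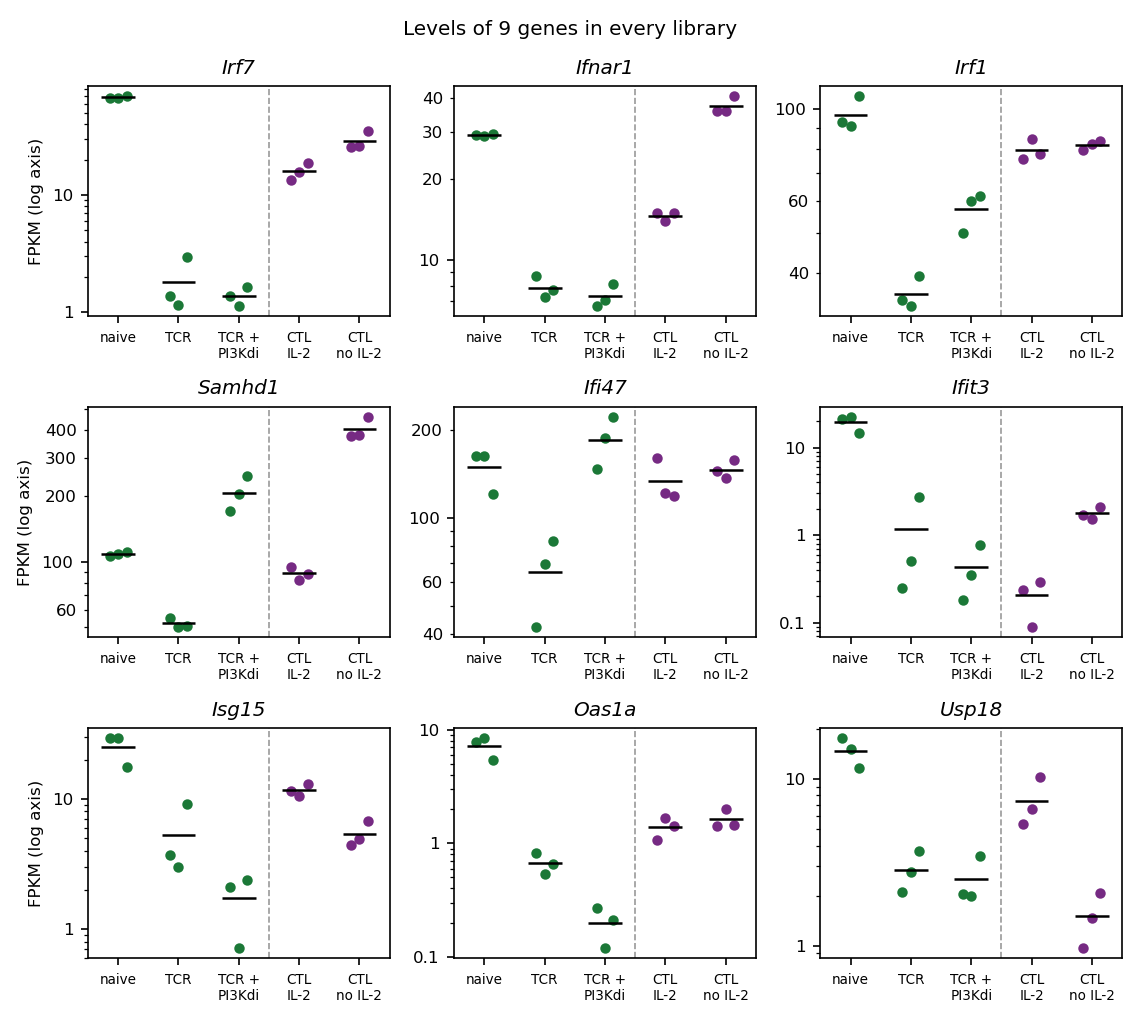
FPKM on a log axis in every library for Irf7, Ifnar1, Irf1, Samhd1, Ifi47, Ifit3, Isg15, Oas1a and Usp18, with points for the 3 replicates in order of their number and a line at the mean of each group, and with a dashed line between the 2 tables, which were normalised separately. Samhd1 is higher with PI3Kdi than with TCR activation and higher without IL-2 than with IL-2, while Isg15 is lower in both of these comparisons.

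The effects of PI3Kdi and of IL-2 withdrawal, which share no library, were set side by side. Samhd1 was called higher in both comparisons and Isg15 lower in both, and no member was called in opposite directions. Over the 40 members in both tables the sign was the same for 24 (60.0%), and over all 10637 mRNA in both tables for 67.4%. Pearson r of the 2 log2 fold changes was 0.22 over the members and 0.39 over all these mRNA, and Spearman's rho 0.171 and 0.438. These correlations are across genes of the same libraries, which are not independent, and carry no test.

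Replicate 3 was often the highest library for these genes. Of the 42 members, 31 were highest in replicate 3 of the TCR activated libraries (73.8%) and 32 in replicate 3 with PI3Kdi (76.2%), while 31.6% and 39.7% of all mRNA were. In CTL without IL-2 replicate 3 was highest for 33 of 41 members (80.5%), where 38.2% of all mRNA were, and in CTL with IL-2 for 19 members (46.3%, against 34.8%). In naïve cells replicate 3 was highest for 8 of 42 members (19.0%, against 36.3%). Irf7, for one, was at 1.36, 1.14 and 2.96 FPKM in the TCR activated libraries and Ifit3 at 0.25, 0.51 and 2.75 FPKM. Without replicate 3, the number of members called lower with PI3Kdi was 5 in place of 3, the added ones being Ifit1, Oasl2 and Rtp4 and the lost one Isg15.

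Other genes of the pathway were counted from a list of 34 ligands, kinases, factors, adaptors and inhibitors. On activation 3 of the 24 measured rose and 8 fell (12.5% and 33.3%, against 25.0% and 23.7% of all mRNA), with a median log2 fold change of -0.371. Jak1, at 271, 276 and 279 FPKM before and 49.5, 58.1 and 56.8 FPKM after activation (-2.33), and Tyk2 (-1.29) fell as the receptor chains did. Irf5 was the single pathway gene called with PI3Kdi, at 2.49, 2.32 and 2.41 FPKM in TCR activated and 0.64, 0.58 and 0.91 FPKM in PI3Kdi treated cells (-1.65, limma adjusted p = 0.000362). The feedback inhibitor Socs1 was at 29.3, 23.96 and 36.7 FPKM with TCR activation and 33.5, 30.5 and 36.2 FPKM with PI3Kdi (adjusted p = 0.504). The interferon gamma gene Ifng, counted apart from this list, was at 1949.8, 2290.0 and 2299 FPKM with TCR activation and 30.9, 27.5 and 38.8 FPKM with PI3Kdi (-6.08, adjusted p = 5.94e-09). The 7 type I interferon ligands of the list were among the genes not analysed here.

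In CTL 2 of the 23 measured pathway genes rose without IL-2 and 2 fell (8.7% each, against 14.3% and 13.9% of all mRNA), with a median log2 fold change of 0.13. Jak1 rose from 106, 108 and 116 to 228, 231 and 341 FPKM (1.25, limma adjusted p = 4.09e-05) and the kinase Ikbke from 18.6, 21.3 and 15.01 to 50.5, 46.2 and 52.2 FPKM (1.45, adjusted p = 6.18e-06). Socs1 fell from 80.1, 98.7 and 73.5 to 18.1, 20.3 and 25.8 FPKM (-1.97, adjusted p = 2.5e-06) and Irf8 from 95.97, 111 and 134 to 8.95, 10.04 and 9.73 FPKM (-3.55, adjusted p = 7.87e-08). The receptor side of the pathway thus had Ifnar1, Ifnar2 and Jak1 called higher, while Tyk2 (0.59) passed the adjusted p without reaching 2-fold.

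Members with and without the ISRE core in their window were compared as a description. On activation the median log2 fold change was -3.32 for the 14 members with a core and -1.86 for the 18 without. With PI3Kdi against TCR activation the medians were -0.436 and 0.0903, and 10 of the 14 with a core and 7 of the 18 without had a negative value. Of the 3 falls with PI3Kdi, Isg15 and Oas1a have the core and Oasl1 has none in its window. Samhd1 and Ifi47, the 2 rises, have none in theirs. In CTL the medians were 0.329 with a core and 0.532 without, over 14 and 17 members. A split by the GAS gave medians on activation of -1.44 for the 11 members with a match and -3.66 for the 21 without. With PI3Kdi against TCR activation these medians were 0.191 and -0.275, and in CTL 0.216 and 0.557.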

How the data were processed

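RNA of 15 libraries, 3 replicates in each of 5 groups, was analysed from 2 tables. The authors deposited FPKM per gene, made by alignment to mm10 with STAR 2.5.2b, counting with Subread 1.5.1 and filtering, TMM scaling and length correction in edgeR. These steps are stated for the naïve and activated cells and were taken to apply to the CTL. How shared or strand-ambiguous reads were counted is not stated in the sources used here. Blank cells were read as 0. Groups came from titles, replicate numbers and growth protocols, since the treatment labels of CTL replicates 2 and 3 with IL-2 read IL3 and IL4.

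Values were tested as log2(FPKM + 0.1) with limma 3.58.1 in R 4.3.3, with an intensity trend and Benjamini-Hochberg adjustment over all genes of a table. The study's own count-based fit needs read counts, and the deposited FPKM are not counts. The code was tested on simulated data. Replicates of the first experiment shared a pool of mice by number. Deviations of same-numbered libraries correlated at 0.27, 0.2 and 0.51 between PI3Kdi treated and TCR activated cells, at -0.14, 0.23 and -0.18 between TCR activated and naïve cells, at -0.015, -0.017 and 0.03 between PI3Kdi treated and naïve cells, and at 0.12, 0.17 and 0.26 in CTL, and a fit with this number as a block was the alternative.

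Values in every library are given for the receptor chains and transcription factors, all members called with PI3Kdi, the 12 largest called in CTL, and the 5 largest falls on activation. Of the other pathway genes, those called with PI3Kdi or in CTL and Ifng, Jak1, Tyk2 and Socs1 are named, and a gene of this rule is not reported here. Genes named beyond this rule were chosen after their values were seen. The members and lists were chosen with earlier results of these data known. Alternatives were another pseudocount, median scaling, a filter of 1 FPKM, blank cells left out, no trend, other fold limits, only the groups compared, the block, and leaving out each replicate. Promoters were RefSeq windows of GRCm38.p6. Python 3.11.15, pandas 2.3.3 and matplotlib 3.10.9 were used.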

Additional observations from a re-analysis of the deposited data

How the results depend on the processing

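The calls of falls on activation and their direction were the same in all alternatives in which the member was tested. The exceptions were Samhd1 (median scaling) and Ifi47 (without replicate 1), whose calls were lost. Mx1, Oasl1 and Rsad2 were tested in 10 and Mx2 in 9 of the 11 alternatives. The filter of 1 FPKM or leaving out blank cells removed them from the rest. Median scaling moved the median log2 fold change of all mRNA on activation from 0.00544 to 0.129 and that of the members from -2.67 to -2.55. With no limit on the fold change, members called higher were 1 on activation, 7 with PI3Kdi against TCR activation, 2 with PI3Kdi against naïve cells and 21 in CTL without IL-2, and those called lower with PI3Kdi against TCR activation and in CTL were 6 and 11. With limits of 1.5 and 0.67, the members called higher in the first 3 of these were 1, 6 and 1, and 6 were lower with PI3Kdi. The number called lower with PI3Kdi against TCR activation was 0 with a pseudocount of 1, 6 with a pseudocount of 0.01, and 2 to 5 when 1 replicate was left out, where replicate 3 gave the 5. Against naïve cells 1 member, Samhd1, was called higher with median scaling, and 0 to 1 with a replicate left out. The uncalled log2 fold change of Ifnar1 with PI3Kdi ran from -0.2004 to 0.0205 and that of Stat2 from -0.04563 to 0.3929 when 1 replicate was left out. With the replicate number as a block, 2 members were higher and 4 lower with PI3Kdi, Oasl2 being the one added, and the block changed no other call of a member. The causes of these changes were not tested. Depth limits what can be said of mRNA under about 1 FPKM, where the fold change depends on the pseudocount.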

Other observations

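The interferon-inducible GTPases, which act in defence against intracellular pathogens and are induced most by interferon gamma, were counted over a list of 16 that leaves out Ifi47. Of the 15 measured, 13 were higher and none lower with PI3Kdi than with TCR activation (86.7%, against 3.04% of all mRNA higher and 2.10% lower), with a median log2 fold change of 1.25. On activation 1 of the 15 was higher and 9 lower (6.67% and 60.0%, against 25.0% and 23.7%), with a median of -1.34. In CTL without IL-2 none was higher and 2 were lower, Iigp1 (-2.06) and Gbp4 (-1.42), where 14.3% of all mRNA were higher and 13.9% lower, with a median of -0.314. Iigp1 was at 5.91, 7.57 and 13.5 FPKM in TCR activated and 28.7, 32.9 and 39.9 FPKM in PI3Kdi treated libraries. The list was chosen with earlier results of these data known.

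Ifng was at 16.3, 18.8 and 28.9 FPKM in CTL with IL-2 and 0.81, 0.97 and 0.51 FPKM without. The groups did not overlap.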
